A study of Mus musculus with 30 samples.

Results

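The genes described here encode the nuclear subunits of mitochondrial oxidative phosphorylation. The rule takes them by symbol and uses no measured value: every gene whose single annotated symbol starts with Nduf, Uqcr, Cox4 to Cox8 or Atp5, or is Sdha, Sdhb, Sdhc or Sdhd. The rule found 87 of the 17097 genes with 1 symbol on the array. By complex these were 35 genes of complex I (NADH dehydrogenase), 7 complex I assembly factors (the Ndufaf genes), 4 of complex II (succinate dehydrogenase), 7 of complex III (the cytochrome bc1 complex), 17 of complex IV (cytochrome c oxidase) and 17 of complex V (ATP synthase). Ndufa4, which carries a complex I name but is now assigned to complex IV, was counted with complex I. Genes encoded on mitochondrial DNA were not analysed here.

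Complexes I to IV pass electrons from NADH and succinate to oxygen, and complexes I, III and IV use the energy to pump protons across the inner mitochondrial membrane. Complex V lets the protons back and makes ATP. Resting T cells rely largely on this pathway, activated T cells raise glycolysis and build more mitochondria, and dendritic cells shift towards glycolysis once strongly activated.

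Gene expression was measured on 30 Affymetrix arrays of total RNA, 3 per group, from mice aged 8 to 10 weeks, all BALB/c and DO11.10 RAG2-/-. All groups share the transgenic T cell receptor for an ovalbumin (OVA) peptide and the loss of RAG2, which leaves the mice without other T cells or B cells. CD4+ T cells (magnetic negative selection) and CD11c+ cells (CD11c microbeads, a fraction enriched for dendritic cells), each over 90% pure per the labels, were profiled in 5 groups. These were unimmunised mice, mice primed with OVA in complete Freund's adjuvant (CFA) at 100 micrograms per mouse, primed mice given control IgG at 10 mg/kg, primed mice given abatacept at 10 mg/kg, and mice that drank OVA in their water, the tolerised group. Cells of the primed, control IgG and abatacept groups were taken on day 10 after immunisation. Abatacept is a CTLA-4 fusion protein that blocks costimulation through CD28. For CD4+ T cells the tissue was axillary lymph node in primed, control IgG and abatacept mice, mesenteric lymph node in tolerised mice, and lymph nodes pooled with spleen in unimmunised mice, and tissue and treatment cannot be told apart in comparisons with the last 2 groups. CD11c+ cells came from pooled nodes and spleen in every group.

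All values are log2 values of 1 probe set per gene, and differences are log2 differences. Genes were tested in a cell type if 3 or more of its 15 arrays put them above that array's median, and were called at an adjusted p under 0.05 (limma, Benjamini-Hochberg over all genes tested). The same 81 of the 87 members passed this filter in both cell types, and 80 lay above the median on all 30 arrays. Cox6b2, a testis isoform, passed without doing so. The other 6 were Cox4i2, Cox7a1, Cox7b2, Cox8b, Cox8c and Ndufa4l2, most of them isoforms known from muscle, testis or other tissues. Of the 87 probe sets used, 15 are of a type that can bind transcripts of several genes, and Ndufs5-ps carries a pseudogene symbol, so its signal may belong to a near-identical copy.

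T cell markers averaged 9.35 to 10.54 in the CD4+ groups against 6.54 to 7.59 in the CD11c+ groups, and dendritic cell markers 7.68 to 8.81 in the CD11c+ groups against 4.23 to 5.56 in the CD4+ groups. The CD4+ unimmunised arrays stood apart: erythroid markers averaged 7.95 and neutrophil markers 9.89 there, against at most 3.64 and 4.61 in the other CD4+ groups. The salivary amylase gene Amy1 lay between 7.69 and 12.15 on 5 CD11c+ arrays (unimmunised replicate 2, control IgG replicates 2 and 3, tolerised replicate 3, abatacept replicate 3). The number of members called without them is given beside each count that rests on them, unless CD11c+ control IgG is 1 side of the comparison. There only control IgG replicate 1 would remain, where Amy1 was still at 5.23. The Y-linked Eif2s3y was between 2.37 and 2.84 on every array of the CD4+ unimmunised, control IgG and abatacept groups and of the CD11c+ unimmunised, tolerised and abatacept groups, and between 5.92 and 8.96 on every array of the other groups. Xist, transcribed from the inactive X chromosome, was also at 9.31 to 10.89 in the CD4+ primed group and at 6.29 to 11.02 in the CD11c+ control IgG group. It was at 5.61 to 7.28 in the CD4+ tolerised and 4.12 to 4.84 in the CD11c+ primed group. In CD4+ T cells sex-linked genes therefore differed in level for primed or tolerised against unimmunised and for tolerised or control IgG against primed mice. In CD11c+ cells they differed for primed against unimmunised, tolerised or control IgG against primed, and abatacept against control IgG. There the difference cannot be told apart from treatment. In CD4+ abatacept against control IgG and CD11c+ tolerised against unimmunised mice, Eif2s3y was low on every array. The labels do not say whether the 3 arrays of a group came from separate mice, so that p-values measure only how these samples vary, and part of that variation may be technical.

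The first 50 bases and the 250 bases before the start of each gene were searched in RefSeq (GRCm38.p6) for exact matches, on both strands, to motifs of factors known for nuclear genes of the respiratory chain. Windows were held for 70 of the 87 members, 75 windows in all. The NRF1 motif, the capitals in the Ndufa11 window, was in 7 of the 75 (9.33%), against 319 of all 32851 windows (0.971%). The YY1 motif AAGATGGC was in 11 (14.7%), against 2.75% of all windows. The ETS motif bound by GABPA, CCGGAAGT, was in 4 (5.33%), against 3.89%. No motif overlapped another in the windows printed. These counts describe letters in a window and do not show binding. The windows shown are of 6 members called lower in CD4+ T cells under abatacept, picked among those with a motif. Other members called lower, such as Atp5o, had a window without any of these motifs. Ndufaf4 (0.13) and Ndufaf5 (-0.03) had the NRF1 motif and were not called. A link between motif and difference was not tested. Each window is written 5′ to 3′ on its own strand with the motif in capitals. These are NRF1 in Ndufa11, Uqcrc1 and Cox6a1, YY1 in Ndufb8 and Atp5pb (in Atp5pb on the opposite strand), and ETS in Uqcr11.
Ndufa11, chr17:56717512-56717811, plus strand: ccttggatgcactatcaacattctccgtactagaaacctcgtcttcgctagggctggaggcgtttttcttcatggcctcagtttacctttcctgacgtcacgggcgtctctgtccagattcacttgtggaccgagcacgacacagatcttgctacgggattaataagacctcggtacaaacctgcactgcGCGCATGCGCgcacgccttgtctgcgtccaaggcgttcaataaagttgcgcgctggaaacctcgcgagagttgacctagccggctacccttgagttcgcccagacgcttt
Uqcrc1, chr9:108936398-108936697, plus strand: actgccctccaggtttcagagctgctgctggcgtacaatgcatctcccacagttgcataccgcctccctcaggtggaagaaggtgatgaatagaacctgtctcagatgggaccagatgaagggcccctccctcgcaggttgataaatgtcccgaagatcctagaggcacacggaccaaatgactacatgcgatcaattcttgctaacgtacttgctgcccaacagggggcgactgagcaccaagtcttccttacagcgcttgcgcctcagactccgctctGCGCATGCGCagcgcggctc
Cox6a1, chr5:115348909-115349208, minus strand: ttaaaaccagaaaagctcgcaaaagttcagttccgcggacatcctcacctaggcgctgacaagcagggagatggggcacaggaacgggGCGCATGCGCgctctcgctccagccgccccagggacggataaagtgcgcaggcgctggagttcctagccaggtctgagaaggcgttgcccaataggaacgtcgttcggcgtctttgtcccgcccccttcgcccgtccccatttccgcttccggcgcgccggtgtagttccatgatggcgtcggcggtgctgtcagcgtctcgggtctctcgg
Ndufb8, chr19:44555393-44555692, minus strand: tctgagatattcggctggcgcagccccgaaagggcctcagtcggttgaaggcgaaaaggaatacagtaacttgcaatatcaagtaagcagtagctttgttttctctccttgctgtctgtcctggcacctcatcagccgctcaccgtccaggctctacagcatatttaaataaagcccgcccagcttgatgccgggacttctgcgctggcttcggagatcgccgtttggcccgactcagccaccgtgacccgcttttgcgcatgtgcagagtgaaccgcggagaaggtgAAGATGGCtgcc
Atp5pb, chr3:105959214-105959513, minus strand: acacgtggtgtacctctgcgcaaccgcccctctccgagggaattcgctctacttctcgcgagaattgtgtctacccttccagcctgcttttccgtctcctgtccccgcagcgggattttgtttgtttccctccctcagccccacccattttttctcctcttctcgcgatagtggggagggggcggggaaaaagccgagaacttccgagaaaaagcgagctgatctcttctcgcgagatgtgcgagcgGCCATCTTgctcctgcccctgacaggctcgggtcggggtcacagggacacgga
Uqcr11, chr10:80406772-80407071, minus strand: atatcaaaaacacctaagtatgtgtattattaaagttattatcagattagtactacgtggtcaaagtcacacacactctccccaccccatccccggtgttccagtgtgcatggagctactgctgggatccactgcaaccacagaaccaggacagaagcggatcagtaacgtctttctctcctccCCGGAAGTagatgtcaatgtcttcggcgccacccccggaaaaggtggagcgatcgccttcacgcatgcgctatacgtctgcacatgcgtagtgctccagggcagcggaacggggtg

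**Figure D1:**
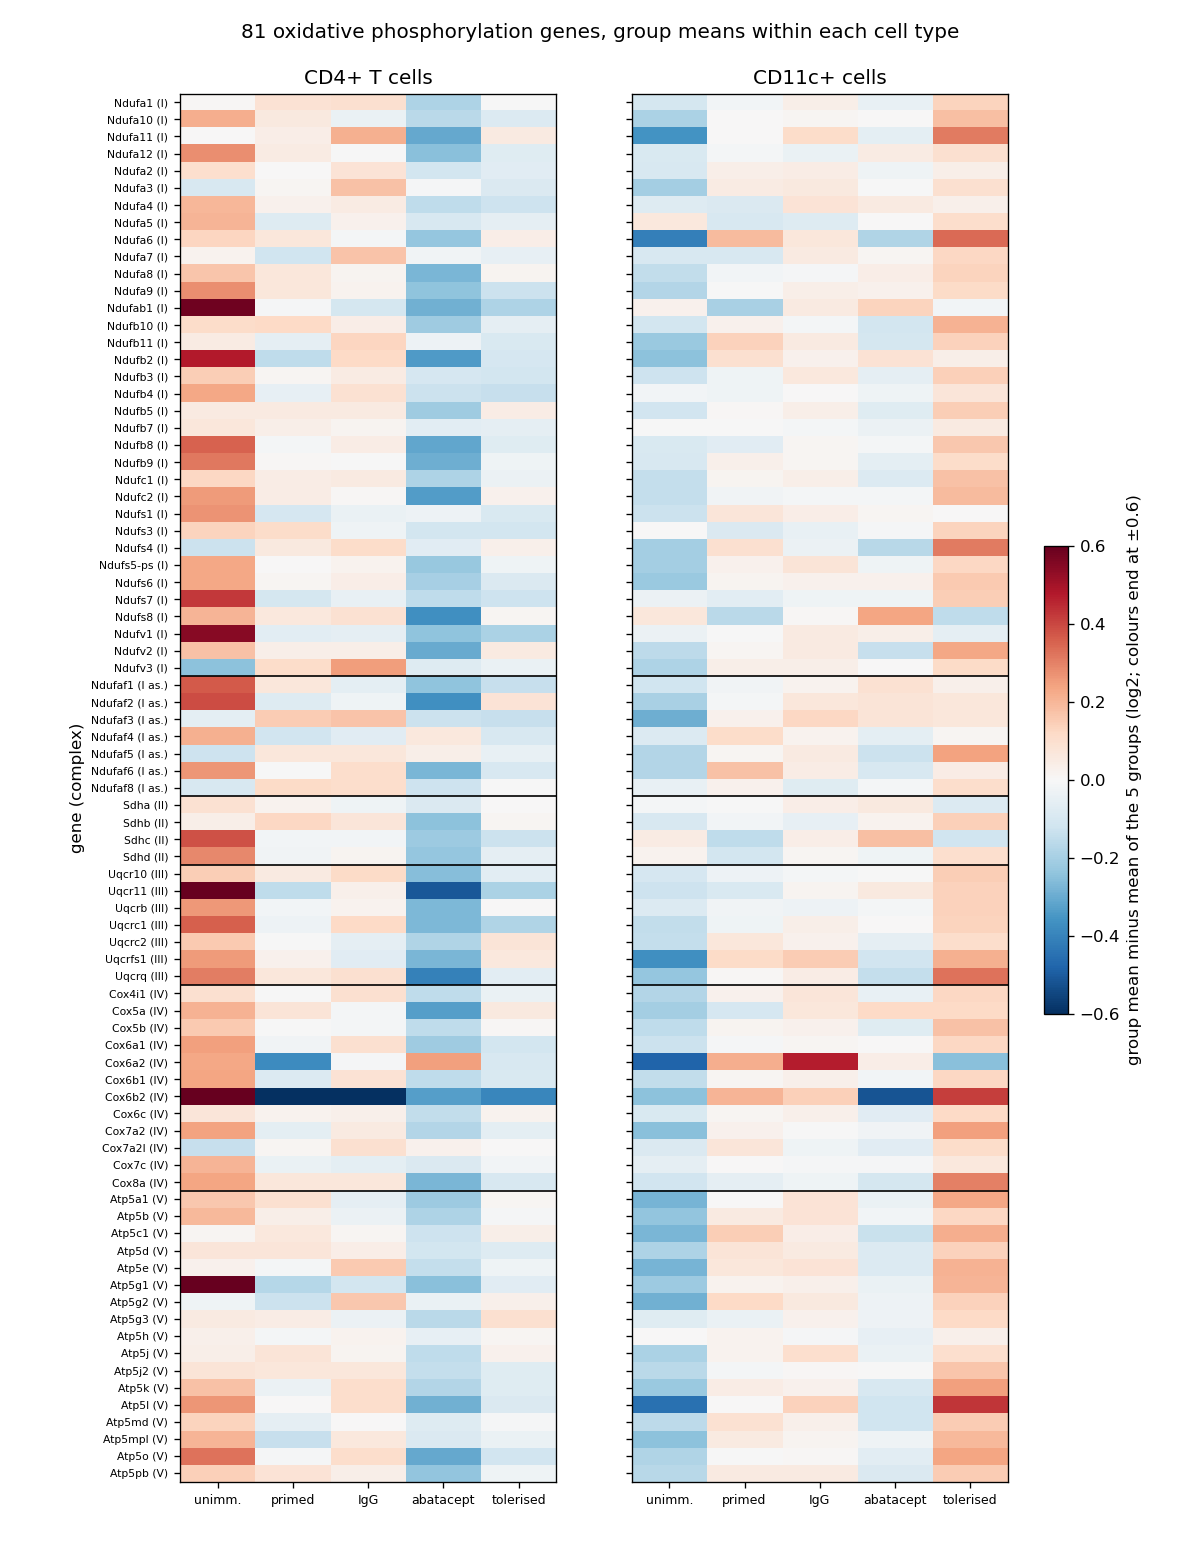
Colour shows each group mean of 3 arrays minus the mean of the 5 groups of that cell type (log2) for the 81 genes tested, in rows by complex, with the 5 groups in columns. Among CD4+ groups the abatacept column is the lowest for 65 of 81 genes and the unimmunised column the highest for 62, and among CD11c+ groups the tolerised column is the highest for 63 and the unimmunised column the lowest for 66.

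In CD4+ T cells of primed mice, transcripts of all 5 complexes were lower under abatacept than under control IgG. Of 81 members, 30 were called lower and 0 higher. That is 37.0% of the members, where 16.7% of all genes tested were called in either direction and 13.4% lower. The members' median difference was -0.22, where the median of all genes was -0.07. The sign was negative for 77 members, and the 4 exceptions were Cox6b2 (0.37), Cox6a2 (0.25), Ndufaf4 (0.13) and Ndufs1 (0.00), none of them called. For 62 members every abatacept array lay below every control IgG array, as it did for 26.5% of all genes. In bulk samples, fewer cells of a type and less RNA per cell cannot be told apart.

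**Figure D2:**
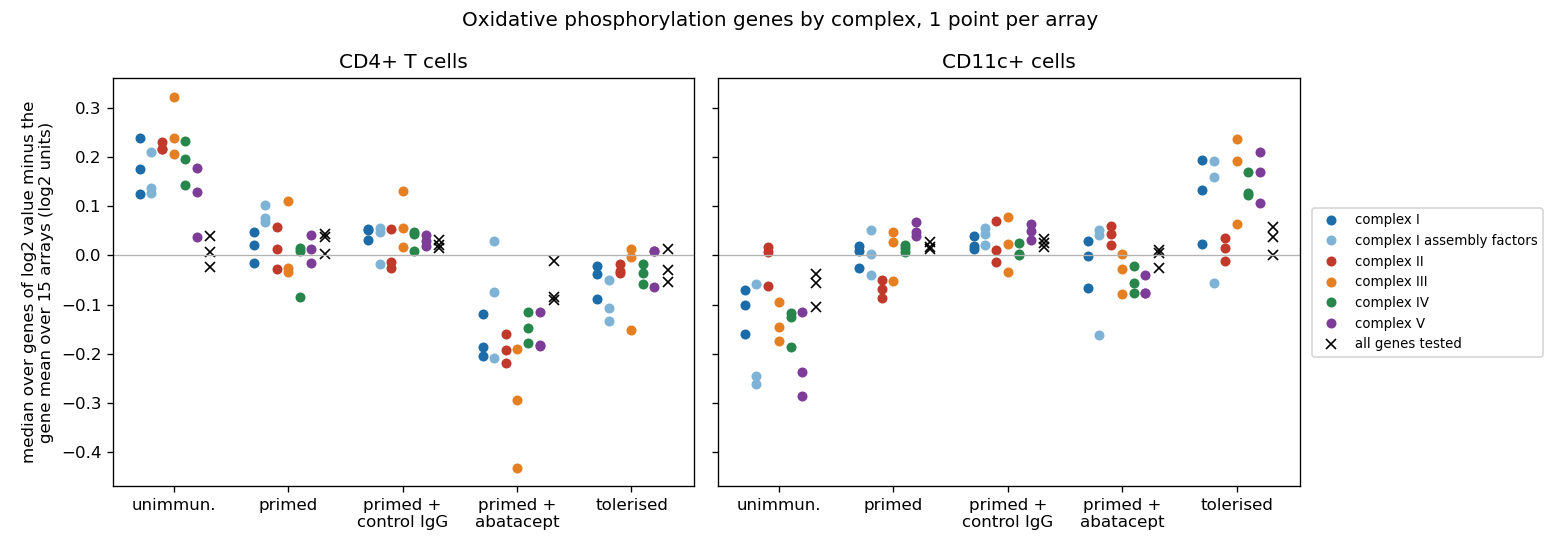
Each point is 1 array: the median, over the genes of 1 complex, of the log2 value minus the gene's mean over the 15 arrays of that cell type, with crosses for all genes tested. Over all members the 3 CD4+ abatacept arrays lay at -0.21 to -0.12 and the control IgG arrays at 0.03 to 0.04, and the CD11c+ tolerised arrays at 0.07 to 0.19 and the unimmunised arrays at -0.18 to -0.09.

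Complex III was lower in 5 of its 7 members, with a median difference of -0.36. Uqcr11, a small subunit, was 7.34, 7.27 and 7.23 on the control IgG arrays and 6.95, 6.48 and 6.78 on the abatacept arrays. The groups did not overlap, and the difference was -0.54 (SE 0.14, adjusted p = 0.016), a fall to 68.7% of control. Uqcrc1, a core subunit, was 8.53, 8.64 and 8.52 with control IgG and 8.34, 8.01 and 8.15 with abatacept, a difference of -0.39 (SE 0.09, adjusted p = 0.0073). All 3 abatacept arrays were below the control arrays. Uqcrq, another small subunit, fell by 0.50 (SE 0.09, adjusted p = 0.0026) from 8.13, 8.22 and 8.18 to 7.73, 7.57 and 7.71. That probe set has the highest mean of 4 for the gene, and the others, with lower means, differed by 0.11, -0.17 and 0.84. The mean of all 4 gave 0.07.

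Complex I was lower in 12 of 34 subunits (median -0.23). Ndufa11, an accessory subunit of the membrane arm, was 7.90, 7.69 and 7.85 with control IgG and 7.40, 7.39 and 7.08 with abatacept. The arrays did not overlap, and the difference was -0.53 (SE 0.10, adjusted p = 0.0033). Ndufs8, an iron-sulfur subunit of the electron path, was 7.72, 7.48 and 7.43 against 7.37, 7.01 and 6.86, a difference of -0.46 (SE 0.12, adjusted p = 0.021). Ndufb8, an accessory subunit often used as a marker of assembled complex I, was 8.85, 8.80 and 8.86 against 8.57, 8.48 and 8.36, a difference of -0.37 (SE 0.07, adjusted p = 0.0045). Both genes were lower on every abatacept array. Of the 7 assembly factors, Ndufaf2 was called, at -0.34 (SE 0.08, adjusted p = 0.011).

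In complex II both the iron-sulfur subunit and a membrane anchor were called. Sdhb was 8.95, 9.04 and 9.0 with control IgG and 8.66, 8.64 and 8.73 with abatacept (-0.32, SE 0.07, adjusted p = 0.01). Sdhd differed by -0.25 (SE 0.07, adjusted p = 0.028). The other anchor Sdhc (-0.20, adjusted p = 0.08) and the flavoprotein Sdha (-0.06, adjusted p = 0.61) were not called.

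Complex IV had 5 lower members of 12. Cox6a1, the isoform of subunit 6a found in most tissues, was 11.10, 11.12 and 11.11 with control IgG and 10.82, 10.80 and 10.78 with abatacept, a difference of -0.31 (SE 0.06, adjusted p = 0.0056). The groups lay well apart, with little spread within either. Cox8a (-0.34, SE 0.10, adjusted p = 0.037) and Cox5a (-0.32, SE 0.09, adjusted p = 0.027) were also lower. Cox7a2l, which helps join complexes III and IV into supercomplexes, differed by -0.07 (adjusted p = 0.48).

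Complex V had 5 lower members of 17 (median -0.16). Atp5o, which links the catalytic head to the stalk that holds it still, was 8.93, 8.90 and 8.90 with control IgG and 8.54, 8.58 and 8.37 with abatacept (-0.41, SE 0.09, adjusted p = 0.0078). Atp5l, subunit g of the membrane part, was 8.23, 8.17 and 8.28 against 7.88, 7.88 and 7.74 (-0.39, SE 0.09, adjusted p = 0.0097), and Atp5e, the epsilon subunit, differed by -0.30 (SE 0.08, adjusted p = 0.021). The catalytic core subunits Atp5a1 (-0.15) and Atp5b (-0.16) were not called, both at an adjusted p of 0.13.

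The number called in this comparison depended on single arrays. It was 14 without abatacept replicate 2 and 17 each without abatacept replicate 3, control IgG replicate 2 or control IgG replicate 3, and 14 when only the 2 groups were fitted, all lower. Of the 15 called genes named, 8 kept their call without any 1 array. The others lost it without at least 1: Ndufs8 (adjusted p up to 0.098), Ndufaf2 (0.055), Sdhd (0.12), Uqcr11 (0.074), Cox8a (0.13), Cox5a (0.1) and Atp5e (0.081).

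**Figure D3:**
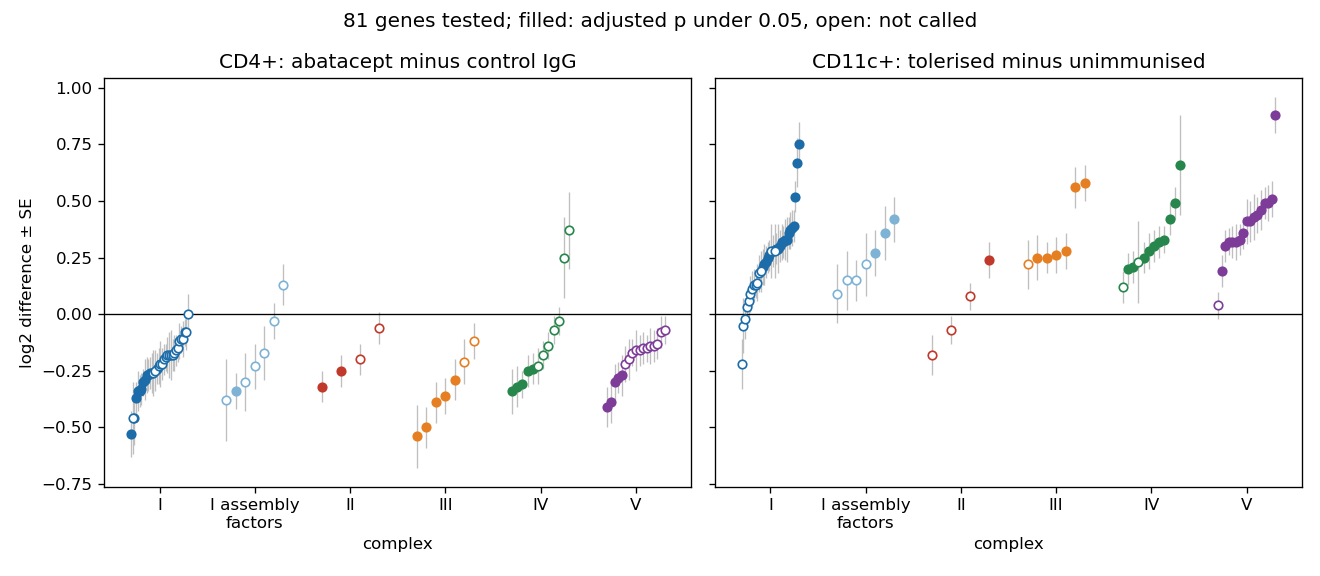
Each point is 1 of the 81 genes with its log2 difference and SE, filled where called, by complex. At left, in CD4+ T cells, 30 points are filled and all lie below 0, and at right, in CD11c+ cells, 56 are filled and all lie above 0, with complex V the most often called at 16 of 17.

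Neighbouring pathways were read from lists of other genes. Of 16 genes of the tricarboxylic acid (TCA) cycle and pyruvate dehydrogenase, 3 were called lower under abatacept and 0 higher (18.8%, near the 16.7% of all genes), among them Cs, citrate synthase (-0.33, adjusted p = 0.0017), and Idh3a (-0.50, adjusted p = 0.0072). Of 31 other assembly factors, 7 were called lower and 0 higher (22.6%), led by Uqcc2 (-0.57, adjusted p = 0.00076), needed for complex III, and Surf1 (-0.52, adjusted p = 0.00094), needed for complex IV. None of 4 electron carriers or of 16 factors of mitochondrial DNA and biogenesis was called. All 14 cell cycle genes were lower, with a median of -1.89. Their summed level (mean log2 over the list) was 7.68 to 8.06 with control IgG and 5.95 to 6.24 with abatacept, and its part in the result was not tested. T cell markers were at 10.43 to 10.52 with control IgG and 10.51 to 10.59 with abatacept, with 1 of 9 called, higher, and 3 of 4 natural killer cell markers were higher (median 1.18). Neutrophil markers were at 3.60 to 3.84 on the arrays of both groups, below the array medians.

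Control IgG and primed mice did not show a called member in either cell type, by limma. The unadjusted p was under 0.05 for 7 members in CD4+ T cells, where 0.0872% of all genes were called, and for 3 members in CD11c+ cells, where 0.0196% were called. Without the arrays with high Amy1 only replicate 1 of CD11c+ control IgG would remain, so that no count is given. The medians of the members were 0.03 and 0.02.

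In CD4+ T cells of primed and tolerised mice most members had lower values than in unimmunised mice, and the direction depended on the scaling. Of 81 members, 32 were called lower and 2 higher in primed mice (42.0%, against 47.4% of all genes tested, 24.2% lower), and 42 lower and 2 higher in tolerised mice (54.3%, against 49.5%, 29.3% lower). Both comparisons share the unimmunised arrays. Centring each array on its median moved the median difference of all genes by 0.27 and 0.19. The calls then split into 26 higher and 8 lower for primed mice and 13 higher and 14 lower for tolerised mice. Relative to the median of all genes, the members' median was lower by -0.19 and -0.18 in the fit without centring.

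Among the members named, Cox6b2, Uqcr11, Atp5g1, Ndufab1 and Ndufv1 kept their calls when arrays were centred. Cox6b2, a testis isoform of complex IV subunit 6b, was 7.5, 7.51 and 7.95 on the unimmunised arrays and 4.06 to 5.28 on the other 12 CD4+ arrays. It differed by -3.43 (SE 0.17, adjusted p = 2.2e-09) in primed and by -2.81 (SE 0.17, adjusted p = 1.4e-08) in tolerised mice, and its primed values of 4.29, 4.34 and 4.06 were below the array medians. Uqcr11 was 8.01, 7.87 and 8.32 in unimmunised mice and 6.93 to 7.24 on the 6 primed and tolerised arrays. It differed by -0.96 (SE 0.14, adjusted p = 5.9e-05) and -1.01 (SE 0.14, adjusted p = 3.8e-05). Atp5g1, 1 of 3 genes for the same rotor ring subunit, differed by -0.76 (SE 0.08) and -0.67 (SE 0.08). Ndufab1, the mitochondrial acyl carrier protein, differed by -0.59 and -0.77, and Ndufv1, the NADH-binding subunit, by -0.61 and -0.73. Sdhc differed by -0.40 and -0.51, and centring left -0.14 (adjusted p = 0.15) and -0.32 (adjusted p = 0.0052). Without centring, the adjusted p of Atp5g1, Ndufab1, Ndufv1 and Sdhc was at most 0.00049 in both comparisons. Ndufv3 (0.36 and 0.21) and Cox7a2l (0.15 and 0.15) were the members called higher, and Cox7a2l lost both calls, and Ndufv3 the one in tolerised mice (adjusted p up to 0.11), when single arrays were left out.

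These 2 comparisons came with large differences in markers of other cells. In primed against unimmunised CD4+ arrays all 5 erythroid (median -3.59), all 10 neutrophil (-6.92) and all 7 red pulp macrophage markers (-5.29) were lower, and 8 of 9 T cell markers were higher (1.04). In the same primed comparison all monocyte and macrophage, natural killer cell and mast cell markers tested were called lower as well, and all dendritic cell markers but Batf3. Of the cell cycle genes, all but Aurkb, Mki67 and Top2a were called lower there. These calls are for primed mice and cannot be carried over to tolerised mice. Mast cell and natural killer cell markers were higher in tolerised than in primed mice, as given below. The part of these cells and of the cell cycle genes in the members' differences was not tested.

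Tolerised and primed CD4+ T cells differed in 1 member, where 14.7% of all genes were called. Cox6b2 was 4.85, 4.67 and 5.01 in tolerised and 4.29, 4.34 and 4.06 in primed mice (0.61, SE 0.17, adjusted p = 0.024), all near the array medians. The call was lost without primed replicate 1 or 3 or tolerised replicate 1 or 3 (adjusted p up to 0.094). The members' median was -0.04, that of all genes -0.05. All mast cell and basophil and all natural killer cell markers tested were called higher in tolerised mice. Of the neutrophil markers, S100a8 (3.53), S100a9 (3.72) and Mmp8 (0.57) were called higher and the others were not called. Lyz2 (2.99) was higher and Ccr2 lower (-0.86), and the other monocyte and macrophage markers were not called. The red pulp macrophage markers Slc40a1 (1.16), C1qa (1.59), C1qc (1.73), Vcam1 (0.75) and Hmox1 (0.63) were called higher, and C1qb and Spic were not called. Of the dendritic cell markers, only Itgax (1.55) and H2-Ab1 (1.87) were called, both higher. All cell cycle genes but Mcm2, Mcm3, Mcm5 and Mcm7 were called lower, among them Ccna2 (-1.17) and Cdk1 (-1.06). The part of these in the result was not tested.

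In CD11c+ cells, members were higher in tolerised than in unimmunised mice. Of 81, 56 were called higher and 0 lower (69.1%), where 48.6% of all genes were called in either direction and 31.9% higher. The median difference was 0.28, against 0.10 for all genes, and centring moved the latter by -0.10. Complex V was called in 16 of 17 members (median 0.41), all but Atp5h (0.04), complex IV in 10 of 12, complex III in 6 of 7, complex I in 20 of 34 and its assembly factors in 3 of 7. Complex II was called in 1 of 4 members.

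Atp5l showed the largest difference of any member. It was 7.84, 7.84 and 7.80 on the unimmunised arrays and 8.81, 8.57 and 8.76 on the tolerised arrays, 0.88 higher (SE 0.08, adjusted p = 2.7e-06), which is 185% of the unimmunised level. Primed mice, at 8.20, 8.29 and 8.35, lay between, without overlap. Atp5a1, the alpha subunit of the catalytic head, was 10.02, 9.89 and 9.77 against 10.43, 10.33 and 10.43 (0.51, SE 0.08, adjusted p = 0.00015). Atp5c1, the rotating gamma subunit, was 0.49 higher (SE 0.07, adjusted p = 8.4e-05).

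Among complex I genes Ndufa6, an accessory subunit of the matrix arm, was 8.30, 8.07 and 8.33 in unimmunised and 9.01, 8.87 and 9.06 in tolerised mice (0.75, SE 0.10, adjusted p = 5.2e-05). Ndufa11 was 7.18, 6.85 and 7.24 against 7.73, 7.61 and 7.93 (0.67, SE 0.11, adjusted p = 0.00029). Ndufs4, an accessory subunit whose loss causes Leigh syndrome, was 9.17, 9.06 and 9.32 against 9.72, 9.68 and 9.71 (0.52, SE 0.07, adjusted p = 8.7e-05). The groups did not overlap for any of the 3 genes. Ndufs8 had the opposite sign (-0.22, adjusted p = 0.11). Ndufaf5, an assembly factor, was 0.42 higher (SE 0.10, adjusted p = 0.004).

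In complex III the iron-sulfur protein Uqcrfs1 was 7.42, 7.26 and 7.14 in unimmunised and 7.87, 7.76 and 7.93 in tolerised mice (0.58, SE 0.08, adjusted p = 7.8e-05). Uqcrq (0.56, adjusted p = 0.00024) and Uqcrc1 (0.28, adjusted p = 0.011) were higher as well. In complex IV, Cox7a2 was 10.19, 10.12 and 10.27 against 10.79, 10.57 and 10.70 (0.49, SE 0.07, adjusted p = 8.4e-05), and Cox8a was 0.42 higher (SE 0.07, adjusted p = 0.00039). Cox5a (0.32, adjusted p = 0.0021) and Cox6a1 (0.25, adjusted p = 0.008) followed. Cox6b2 was 0.66 higher (SE 0.22, adjusted p = 0.022), and lost its call without tolerised replicate 1 or unimmunised replicate 3 (adjusted p up to 0.11). In complex II, Sdhb was 9.07, 8.91 and 8.93 against 9.18, 9.12 and 9.34 (0.24, SE 0.08, adjusted p = 0.019), a call lost without tolerised replicate 3 or unimmunised replicate 2 or 3 (adjusted p up to 0.091). Sdhd (0.08), Sdha (-0.07) and Sdhc (-0.18) were not called.

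The CD11c+ arrays with high Amy1 and other cells moved with this comparison. Without the 5 arrays with high Amy1, 24 members were called higher and 1 lower, and with only the 2 groups fitted, 33 were called, all higher. Markers of neutrophils rose in 9 of 9 genes tested (summed level 5.91 to 6.96 on the unimmunised and 8.46 to 9.91 on the tolerised arrays) and those of T cells in 8 of 8 (6.20 to 6.99 against 7.34 to 7.89). Markers of red pulp macrophages fell in 7 of 7 (11.01 to 11.12 against 9.02 to 9.84). Cell cycle genes rose in 13 of 14, dendritic cell markers in 7 of 8 (median 0.68) and natural killer cell markers in 4 of 4 (1.05). Of 7 other monocyte and macrophage markers, 2 rose and 5 fell. The part of these in the result was not tested. Of the TCA cycle genes, 10 of 16 were called higher and 2 lower, led by Cs (0.53, adjusted p = 7.9e-05). Of the electron carriers 3 of 4 were higher, led by Cycs, cytochrome c (0.69, adjusted p = 0.00026), and of the biogenesis factors 4 of 16 were higher and 0 lower (25.0%, below the 31.9% of all genes called higher), led by Gabpb1 (0.77, adjusted p = 0.00034) and Tfam (0.52, adjusted p = 0.00037), which coats mitochondrial DNA. Of 31 other assembly factors, 7 were higher and 3 lower (32.3%, below the 48.6% of all genes).

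Primed mice showed the same sign with fewer calls in CD11c+ cells, and both comparisons share the unimmunised arrays. Of 81 members 28 were called higher and 0 lower (34.6%, against 38.6% of all genes, 25.5% higher), 13 of them in complex V. Centring moved the median of all genes by -0.11 and left 11 higher and 5 lower. The named genes were Cox6a2 (0.71, SE 0.18, adjusted p = 0.0078), Ndufa6 (0.60, SE 0.10, adjusted p = 0.00049), Uqcrfs1 (0.47, SE 0.08, adjusted p = 0.00063), Atp5l (0.45, SE 0.08, adjusted p = 0.00052), Atp5c1 (0.42, SE 0.07, adjusted p = 0.00048) and Atp5g2 (0.40, SE 0.10, adjusted p = 0.0068). All 6 kept their call without any 1 array. Neutrophil markers were higher in 8 of 9 genes (median 2.42), dendritic cell markers in 8 of 8 (1.0), cell cycle genes in 10 of 14 (0.97) and natural killer cell markers in 4 of 4 (0.73). The T cell markers Thy1 (1.04), Cd3d (0.97), Cd28 (0.96), Cd4 (0.72) and Cd247 (0.36) were called higher, and Cd3g, Lat and Cd3e were not called. Red pulp macrophage markers were lower in 7 of 7 (-1.02), and of 7 other monocyte and macrophage markers 5 were lower and 2 higher. The part of these was not tested. The count fell to 9 without the 5 arrays with high Amy1, to 16 without unimmunised replicate 1 or 2, to 17 without primed replicate 1, to 18 without primed replicate 3, and to 15 with only the 2 groups fitted.

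Tolerised and primed CD11c+ cells differed in 2 members (2.47%, against 2.84% of all genes, 1.39% higher), both higher in tolerised mice: Atp5l (0.43, SE 0.08, adjusted p = 0.0093) and Cox8a (0.36, SE 0.07, adjusted p = 0.018). The sign was positive for 72 of 81 members. Atp5l lost its call without primed replicate 1 (adjusted p = 0.052), Cox8a without any of 5 arrays (up to 0.07), and neither was called without the 5 arrays with high Amy1. Of the cell type markers tested, Cd209a (-1.27) and Spic (-0.76) were called lower in tolerised mice, and Cma1 (1.23) and Gzma (0.65) higher. The part of these markers was not tested. Under abatacept against control IgG, 2 members were called lower (2.47%, against 15.3% of all genes, 8.86% lower): Atp5l, from 8.46, 8.38 and 8.44 to 8.14, 8.23 and 8.11 (-0.26, SE 0.08, adjusted p = 0.033), and Uqcrfs1 (-0.27, SE 0.08, adjusted p = 0.038). Each lost its call without any of 5 arrays (adjusted p up to 0.11 and 0.12). Without the arrays with high Amy1 only control IgG replicate 1 would remain, so that no count is given. The unadjusted p was under 0.05 for 9 members. Dendritic cell markers were lower in 7 of 8 genes in the same comparison (median -0.60). The red pulp macrophage markers called, Spic (0.86), C1qa (0.77) and C1qb (0.69), were higher. Of the other monocyte and macrophage markers, Cd14, Fcgr1, Adgre1 and Cd68 were called higher, and Lyz2 and Ccr2 lower. Among T cell and natural killer cell markers only Thy1 (-1.19) and Gzma (-0.62) were called. The part of these in the result was not tested.

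**Figure D4:**
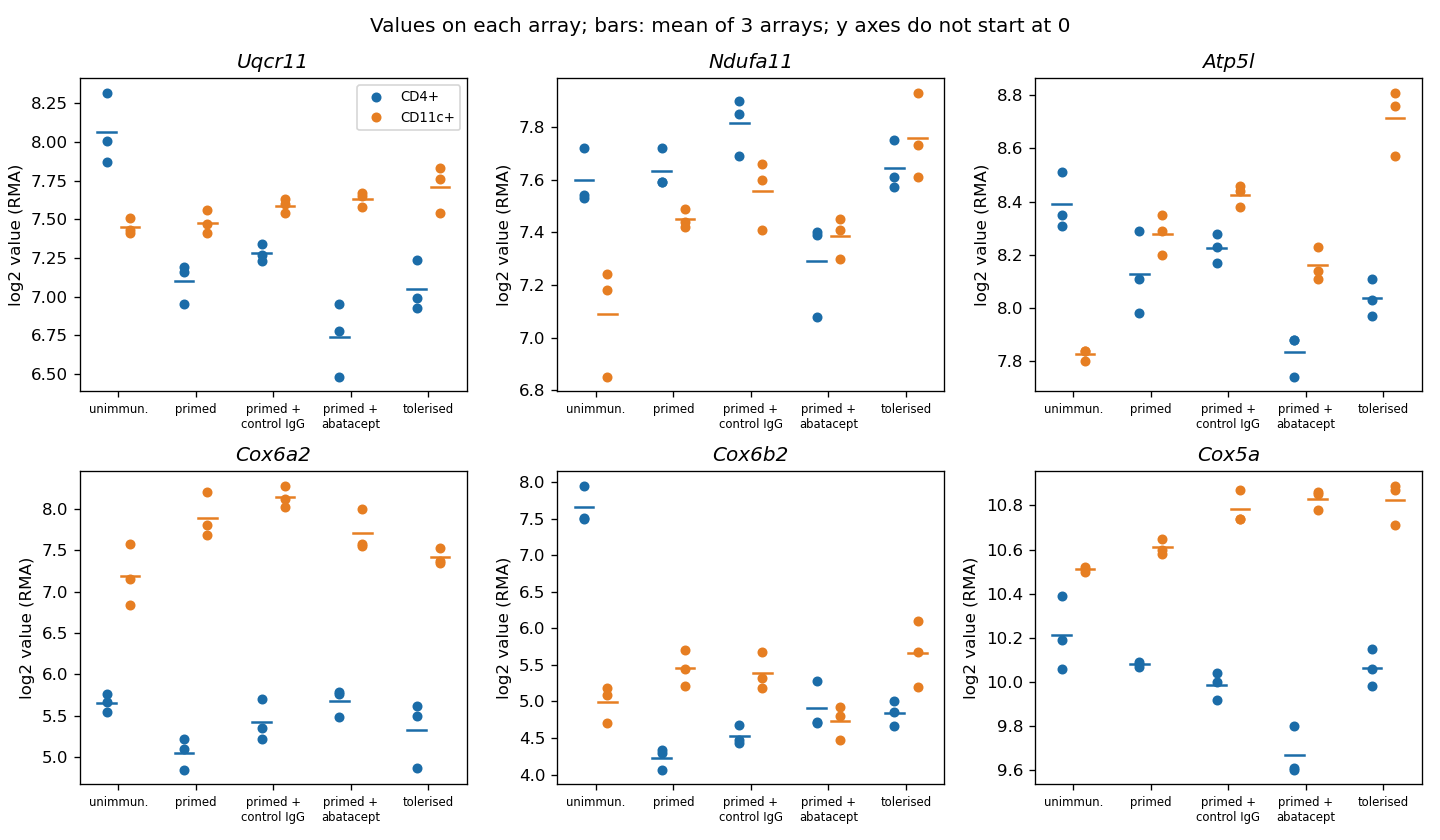
Points are the log2 values of 6 genes on each array, blue for CD4+ and orange for CD11c+ cells, with bars at the group means of 3 arrays. Cox6a2 and Cox5a are higher on every CD11c+ array than on every CD4+ array, and Cox6b2 is highest on the 3 CD4+ unimmunised arrays.

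Of the 30 members lower under abatacept in CD4+ T cells, 26 (86.7%) were among the 56 higher in tolerised CD11c+ cells, which is 46.4% of that list. Of the other 51 members tested, 30 (58.8%) were. The 2 comparisons share no arrays, and the overlap is given as a description.

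Treatment differences were then compared between the 2 cell types with interaction terms fitted on all 30 arrays. For abatacept against control IgG, the difference was lower in CD4+ T cells for 10 members and higher for 1 (13.6%, against 14.3% of all genes, 9.35% lower). Ndufs8 was -0.46 in CD4+ T cells while its CD11c+ arrays were 8.41, 8.30 and 8.22 with abatacept and 7.97, 8.36 and 7.92 with control IgG, a difference between cell types of -0.69 (SE 0.16, adjusted p = 0.0057). It was -0.59 for Uqcr11 (SE 0.16, adjusted p = 0.015), -0.39 for Sdhb (SE 0.10, adjusted p = 0.01), -0.37 for Uqcrc1 (SE 0.11, adjusted p = 0.031) and -0.37 for Cox5a (SE 0.11, adjusted p = 0.023). Cox6b2 went the other way (1.03, SE 0.29, adjusted p = 0.017). The number of calls was 4 to 6 without any 1 of 5 arrays (CD4+ abatacept replicates 2 and 3, CD11c+ abatacept replicates 1 and 2, CD11c+ control IgG replicate 3). Without the arrays with high Amy1 only replicate 1 of CD11c+ control IgG would remain, so that no count is given. Ndufs8 and Sdhb kept their call without any 1 array, and the other 4 lost it without at least 1 (adjusted p up to 0.053 for Uqcr11, 0.1 for Uqcrc1, 0.063 for Cox5a and 0.059 for Cox6b2).

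For primed against unimmunised mice 48 members were lower in the difference between cell types and 0 higher (59.3%, against 42.1% of all genes, 27.4% lower). Centring moved the median of all genes by 0.37 and split the calls into 16 higher and 9 lower. Cox6b2 (-3.88), Cox6a2 (-1.31, SE 0.27), Atp5g1 (-1.0, SE 0.11), Uqcr11 (-1.0, SE 0.16) and Uqcrfs1 (-0.70, SE 0.12) kept a negative value under it, with adjusted p of at most 0.00038 in the fit without centring. The value of Cox6b2 rests on CD4+ primed arrays below the array medians and is not an exact fold. Without the arrays with high Amy1, 40 members were lower and 0 higher. For tolerised against primed mice 9 were lower and 0 higher (11.1%, against 11.3%, 6.32% lower), among them Atp5l (-0.52, SE 0.11, adjusted p = 0.0034), Cox8a (-0.52, SE 0.12, adjusted p = 0.0063) and Uqcrq (-0.45, SE 0.13, adjusted p = 0.023, lost without any 1 of 5 arrays, up to 0.07). That count was 4 without CD11c+ tolerised replicate 3, CD4+ primed replicate 1 or CD4+ primed replicate 3, 16 without CD11c+ tolerised replicate 2, and 3 without the arrays with high Amy1.

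Between the cell types themselves, averaged over the 5 treatments, 24 members were called higher in CD4+ T cells and 22 higher in CD11c+ cells (56.8%, against 83.2% of all genes, 46.0% higher and 37.2% lower in CD4+ T cells). Centring moved the median of all genes by 0.24 and split the calls into 69 and 5, and without the arrays with high Amy1 the calls were 22 and 21. For 4 members the 15 CD4+ and the 15 CD11c+ arrays did not overlap, where 20.9% of all genes did not.

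Cox6a2, the isoform of subunit 6a known from heart and skeletal muscle, stood out among them. It ran from 4.84 to 5.79 (median 5.50) on the CD4+ arrays and from 6.84 to 8.28 (median 7.57) on the CD11c+ arrays. The difference was -2.24 (SE 0.08, adjusted p = 8.4e-18), so that the CD4+ level was 21.1% of the CD11c+ level. Within CD11c+ cells its mean was lowest in unimmunised mice (7.57, 7.15 and 6.84) and highest with control IgG (8.12, 8.28 and 8.02), and tolerised mice (7.53, 7.37 and 7.35) did not pass the test against either unimmunised (0.23, adjusted p = 0.32) or primed mice (-0.48, adjusted p = 0.19). Of 9 skeletal muscle markers, Acta1, Ckm, Myh4 and Myl1 lay between 2.63 and 4.39 on all 30 arrays, below the array medians, and Tnnt3 between 3.30 and 4.69. The other 4 were tested: Tnni2, at 7.36 to 8.59 on the CD11c+ and 3.07 to 6.37 on the CD4+ arrays (-3.32), Atp2a1 (-0.89) and Tnnc2 (-0.44) were higher in CD11c+ cells, and Mylpf (1.22) was higher in CD4+ T cells. In CD11c+ primed against unimmunised mice Tnni2 (0.90), Mylpf (0.88) and Atp2a1 (0.94) were higher, as Cox6a2 was, and all 3 were also higher in tolerised mice. Tnnc2 was not called against unimmunised mice in either primed (0.05) or tolerised mice (-0.10). The part of muscle RNA in the values of Cox6a2 was not tested.

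Cox5a, a nuclear-encoded subunit of complex IV, was 9.60 to 10.39 (median 10.06) on the CD4+ arrays and 10.50 to 10.89 (median 10.74) on the CD11c+ arrays (-0.71, SE 0.03, adjusted p = 1e-15). Ndufs8 was 6.86 to 7.74 against 7.88 to 8.41 (-0.63, SE 0.05, adjusted p = 4.8e-11). Both were higher on every CD11c+ array. Ndufaf4, an assembly factor, was the reverse: 7.98 to 8.53 on the CD4+ arrays and 7.39 to 7.97 on the CD11c+ arrays (0.45, SE 0.05, adjusted p = 2.2e-08). Ndufaf5 (0.36, SE 0.04), Ndufs4 (0.31, SE 0.03) and Atp5d, the delta subunit of complex V (0.21, SE 0.03), were also higher in CD4+ T cells, each with an adjusted p of at most 1.1e-07.

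All 4 members of complex II were called higher in CD11c+ cells: Sdhc (-0.52, SE 0.03), Sdhb (-0.14), Sdha (-0.11) and Sdhd (-0.08). Only Sdhc of the 4 kept its sign when arrays were centred. In complex V, 11 members were called higher in CD4+ T cells and 2 higher in CD11c+ cells. These differences average groups from different tissues and include the CD4+ unimmunised arrays. Without the unimmunised arrays of both cell types, 12 members were called higher in CD4+ T cells and 33 higher in CD11c+ cells.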

How the data were processed

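The deposited table holds log2 values of 45118 probe sets on 30 arrays, deposited by the authors after RMA, which corrects background, quantile-normalizes and summarises probes. RMA is named in the submitters' processing notes, without a version. Array medians were 4.46 to 4.54. The number of arrays, 3 per group, limits the precision.

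Probe sets were named from the platform annotation given with the data (28898 with 1 symbol, 551 with several, 15669 with none), and the probe set with the highest mean over 30 arrays stood for each of 17097 genes. limma 3.58.1 (R 4.3.3; lmFit and eBayes, two-sided) was fitted on all genes tested, over the 15 arrays of a cell type (10322 genes in CD4+ and 10203 in CD11c+ cells) or over all 30 arrays (10794 genes), with Benjamini-Hochberg adjustment over all genes tested. In all 14 comparisons were made. On simulated data with known changes, the CD4+ abatacept comparison recovered 2% of changes of 0.25, 52% of changes of 0.5, 46% of changes of -0.5 and 92% of changes of 1, and 3.03% of calls were false. The CD11c+ abatacept comparison recovered 10%, 38%, 52% and 92%, with 5.88% false. The simulation changed only a small share of the genes, while 16.7% and 15.3% of all genes were called in these 2 comparisons. With fewer changed genes the adjusted p is stricter, so the recovery in the data cannot be read from it.

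The members and lists were chosen with earlier results of these data known. For each comparison and complex, the text names at most 3 called members with the largest difference in each direction, all where 5 or fewer were called, and members of a list of core subunits and isoforms. Some members under this rule are given only in the counts. Alternatives were another normalization, median centring, no filter, the mean of all probe sets, fits of only the groups compared, a replicate block, each array left out, and, chosen after seeing the data, fits without the CD4+ unimmunised arrays or the CD11c+ arrays with high Amy1. The replicate numbers did not pair the samples: in no comparison were all same-numbered correlations over 0.1.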

Additional observations from a re-analysis of the deposited data

Results flagged for a closer look

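These results are listed because a test of the difference between the 2 cell types (limma interaction over 30 arrays) passed its threshold. For primed against unimmunised mice it called 48 of 81 members, where 42.1% of all genes tested were called. When arrays were centred on their medians, the calls of members went in both directions. Without centring, the difference in CD4+ minus that in CD11c+ cells was -3.88 for Cox6b2, -1.31 for Cox6a2, -1.0 for Atp5g1, -1.0 for Uqcr11 and -0.70 for Uqcrfs1. The value of Cox6b2 is not an exact fold, since its CD4+ primed arrays lay below the array medians. For tolerised against primed mice the test called 9 of 81 members, near the 11.3% of all genes called. The values were -0.52 for Atp5l, -0.52 for Cox8a and -0.45 for Uqcrq. For abatacept against control IgG it called 11 of 81 members, near the 14.3% of all genes called. The values were -0.69 for Ndufs8, -0.59 for Uqcr11, -0.39 for Sdhb, -0.37 for Uqcrc1, -0.37 for Cox5a and 1.03 for Cox6b2.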

How the results depend on the processing

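Of 1619 alternative values for the genes named, 1457 kept their direction and side of the threshold, 142 lost the call, 8 gained it and 12 reversed, and of 222 alternative member medians 199 stayed within the spread, 20 moved and 3 reversed. The cause was not tested. Median centring changed the number of members called to 27 in CD4+ tolerised against unimmunised mice, 8 in CD4+ tolerised against primed, 16 in CD11c+ primed against unimmunised, 0 in CD11c+ abatacept against control IgG, 74 between cell types, and 25 and 30 in the interactions for primed against unimmunised and tolerised against primed. It turned the members' median to 0.10 in CD4+ primed against unimmunised mice and to 0.03 in that interaction, Sdha to 0.13, Sdhb to 0.10 and Sdhd to 0.17 between cell types, and Sdhd to -0.02 and Atp5h to -0.07 in CD11c+ tolerised against unimmunised mice. Quantile normalizing again gave 18 called under abatacept in CD4+ and 1 in CD11c+ cells, and -0.02 for Atp5h. Without the filter, 0 were called under abatacept in CD11c+ cells, and 5 and 7 in the interactions for tolerised against primed and for abatacept. Fitting only the 2 groups gave 14 under abatacept in CD4+ T cells, and 15, 33 and 0 in CD11c+ primed against unimmunised, tolerised against unimmunised and tolerised against primed. Without the arrays with high Amy1 these last 3 were 9, 25 and 0, and the interaction for tolerised against primed gave 3. The mean of all probe sets gave -0.04 for Ndufaf4, 0.01 for Sdha and 0.07 for Uqcrq under abatacept in CD4+ T cells, and 0.09 for Sdha between cell types. Without the unimmunised arrays the members' median between cell types was -0.05. Leaving out single arrays gave 0 to 1 called in CD4+ tolerised against primed, 14 to 34 under abatacept in CD4+, 16 to 32 in CD11c+ primed against unimmunised, 0 to 3 in CD11c+ tolerised against primed, 0 to 3 under abatacept in CD11c+, and 4 to 16 and 4 to 15 in the last 2 interactions, and moved Ndufs1 under abatacept in CD4+ T cells from -0.05 to 0.05. With the replicate block 26 members were called under abatacept in CD4+ T cells, 52 in CD11c+ tolerised against unimmunised mice and 1 under abatacept in CD11c+ cells. The replicate numbers do not pair the samples.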
